A study of Mus musculus with 18 samples.

Results

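Genes of motile cilia and of the ependyma, the ciliated cell layer that lines the ventricles of the brain, were followed in mouse hemibrains that carried one of the human APOE alleles. The members were 42 listed symbols, looked up in a table of raw read counts with 52433 gene symbols, and all 42 were found there. Each mouse was homozygous for a human allele, APOE2/APOE2, APOE3/APOE3 or APOE4/APOE4, of strain C57bl/6 and 12 months old, with 6 mice per genotype, 3 females and 3 males. In these targeted-replacement lines the human gene takes the place of the mouse Apoe gene in every cell of the body, so all groups lack mouse apolipoprotein E and none of them is a wild type. The labels do not say from how many litters or founder animals each line came, so the line and the allele cannot be told apart. PolyA RNA of 1 hemibrain per mouse was sequenced as 1 library, with 43818967 to 59394503 counts per library.

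Ependymal cells carry tufts of cilia that beat together and move cerebrospinal fluid. The shaft of a motile cilium, the axoneme, holds a ring of doublet microtubules around a central pair. Dynein arms along the doublets make them slide, radial spokes and the central pair set the rhythm, a nexin link and a molecular ruler keep the parts at fixed spacing, and filaments of tektin and other inner proteins stiffen the doublet wall. The transcription factor Foxj1 switches on most of this set in ciliated cells, together with factors of the RFX family. Because the list is mostly built from the axoneme, other ciliated cells such as the epithelium of the choroid plexus also express some of it. All 42 genes passed the filter on low counts, but a hemibrain is mostly made of other cells. Markers of neurons, oligodendrocytes, microglia and endothelium were all present, for example the synaptic gene Snap25 at 2575 ± 84.2 CPM (counts scaled to library size) in APOE3 mice (SD, n = 6).

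In short, 6 of the 42 genes differed in APOE2 mice from both other genotypes, and they did so in opposite directions. Over all genes tested, 3.91% passed the same test between APOE2 and APOE3 and 6.53% between APOE2 and APOE4. Within 5 Mb of each of the 6 genes, 11.4% to 30.6% of the other tested genes passed between APOE2 and APOE3. Mns1, Tekt1 and Zmynd10 were higher in APOE2, and Dcdc2b, Ccdc153 and Tekt2 were lower, with Tekt2 at the edge of the threshold relative to APOE4. The other 36 did not pass the test in any genotype pair. No member differed between APOE4 and APOE3 at the threshold used, which was a Benjamini-Hochberg adjusted p under 0.05 in the quasi-likelihood test of edgeR over 18891 genes. In that pair 0.773% of all genes passed.

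The promoters of these 6 genes are shown because these genes carry the differences described next. They were taken from RefSeq on GRCm38.p6, from 250 bases before to 50 after the transcript start, and are written 5′ to 3′ on the strand of the gene. The regions are chr11:72361833-72362132 on the minus strand for Tekt1, chr4:126325639-126325938 on the minus strand for Tekt2 and chr4:129614223-129614522 on the minus strand for Dcdc2b. On the plus strand of chromosome 9 they are chr9:44240427-44240726 for Ccdc153, chr9:72438279-72438578 for Mns1 and chr9:107547054-107547353 for Zmynd10. Capitals mark GTTGCC, the letters of a short site bound by RFX factors, and its reverse complement GGCAAC.
Mns1: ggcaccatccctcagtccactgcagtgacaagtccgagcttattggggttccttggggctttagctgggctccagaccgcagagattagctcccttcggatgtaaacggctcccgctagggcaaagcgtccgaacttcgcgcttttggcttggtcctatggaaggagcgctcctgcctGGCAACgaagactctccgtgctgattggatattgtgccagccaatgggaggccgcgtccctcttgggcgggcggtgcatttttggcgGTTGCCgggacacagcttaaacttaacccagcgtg
Tekt1: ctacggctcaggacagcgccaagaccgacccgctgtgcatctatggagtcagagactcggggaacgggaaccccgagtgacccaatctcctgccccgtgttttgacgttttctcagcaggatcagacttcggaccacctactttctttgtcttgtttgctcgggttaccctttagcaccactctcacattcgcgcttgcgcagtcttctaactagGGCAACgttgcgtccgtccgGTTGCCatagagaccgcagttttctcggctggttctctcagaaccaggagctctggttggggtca
Zmynd10: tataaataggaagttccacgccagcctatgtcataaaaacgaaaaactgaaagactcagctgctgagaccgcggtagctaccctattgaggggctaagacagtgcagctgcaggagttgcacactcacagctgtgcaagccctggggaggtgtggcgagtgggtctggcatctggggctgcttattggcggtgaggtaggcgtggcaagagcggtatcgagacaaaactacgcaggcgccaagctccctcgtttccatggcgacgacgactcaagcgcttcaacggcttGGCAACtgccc
Dcdc2b: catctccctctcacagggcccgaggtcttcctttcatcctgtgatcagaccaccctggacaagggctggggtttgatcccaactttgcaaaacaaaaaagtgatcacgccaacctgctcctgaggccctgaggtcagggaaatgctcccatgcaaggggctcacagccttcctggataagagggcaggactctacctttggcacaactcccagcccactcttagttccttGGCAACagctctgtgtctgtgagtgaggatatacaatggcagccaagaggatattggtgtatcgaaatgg
Ccdc153: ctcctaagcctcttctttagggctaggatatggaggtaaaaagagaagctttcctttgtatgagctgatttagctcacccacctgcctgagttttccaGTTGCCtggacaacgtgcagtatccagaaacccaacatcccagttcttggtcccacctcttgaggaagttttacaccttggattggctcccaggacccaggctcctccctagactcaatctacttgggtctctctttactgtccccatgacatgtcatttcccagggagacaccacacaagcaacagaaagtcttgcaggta
Tekt2: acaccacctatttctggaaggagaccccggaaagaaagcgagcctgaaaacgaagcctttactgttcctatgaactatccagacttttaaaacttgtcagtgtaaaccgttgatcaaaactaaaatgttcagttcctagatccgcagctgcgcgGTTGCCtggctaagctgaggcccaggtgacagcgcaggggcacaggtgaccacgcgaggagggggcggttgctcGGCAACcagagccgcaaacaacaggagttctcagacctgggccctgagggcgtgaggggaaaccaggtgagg
A RefSeq promoter was found for 35 of the 42 genes. GTTGCC, searched on both strands, was in 16 of these 35 (45.7%), compared with 12.5% of the 32851 promoters of the same length. All 6 of the called genes held it, at positions from -152 in Ccdc153 to 39 in Zmynd10, counted from the transcript start, with 2 matches each in Tekt1, Tekt2 and Mns1. The RefSeq starts of Tekt1 and Mns1 lie 560 and 518 bases from the start of the gene in GENCODE. Among the other members, the distance is 16975 bases for Tekt4, which is counted among the 16, and 1720 bases for Dnah12, which held neither motif. The forkhead letters GTAAACA, also searched on both strands, were in 4 of the 35 (11.4%) and in none of the 6, compared with 3.65% of all promoters; 1 of the 4 is Cfap43, whose RefSeq start lies 81926 bases from that in GENCODE. No match of one motif overlapped a match of the other in the 6 promoters shown, since the forkhead letters were not in these windows. A match of letters is a description of the sequence and not evidence that a factor binds there. The sequences are those of the reference strain, and the alleles that the mice carry were not read.

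Levels between genes were compared per length, as CPM per kilobase of annotated exon (RPKM). The highest of the 42 was Drc1, a subunit of the nexin-dynein regulatory complex, at 5.98 ± 0.299 RPKM over the 18 mice (SD). Next came Fam183b, a gene of ciliated cells, at 4.54 ± 0.635 RPKM and Foxj1 at 4.29 ± 0.473 RPKM, whose spreads overlap. The lowest was Spag17, a central pair protein, at 0.111 RPKM. Mia, listed as an ependymal marker, had only 3 to 15 counts in a library, so its level could not be told apart between groups at this depth.

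**Figure D1:**
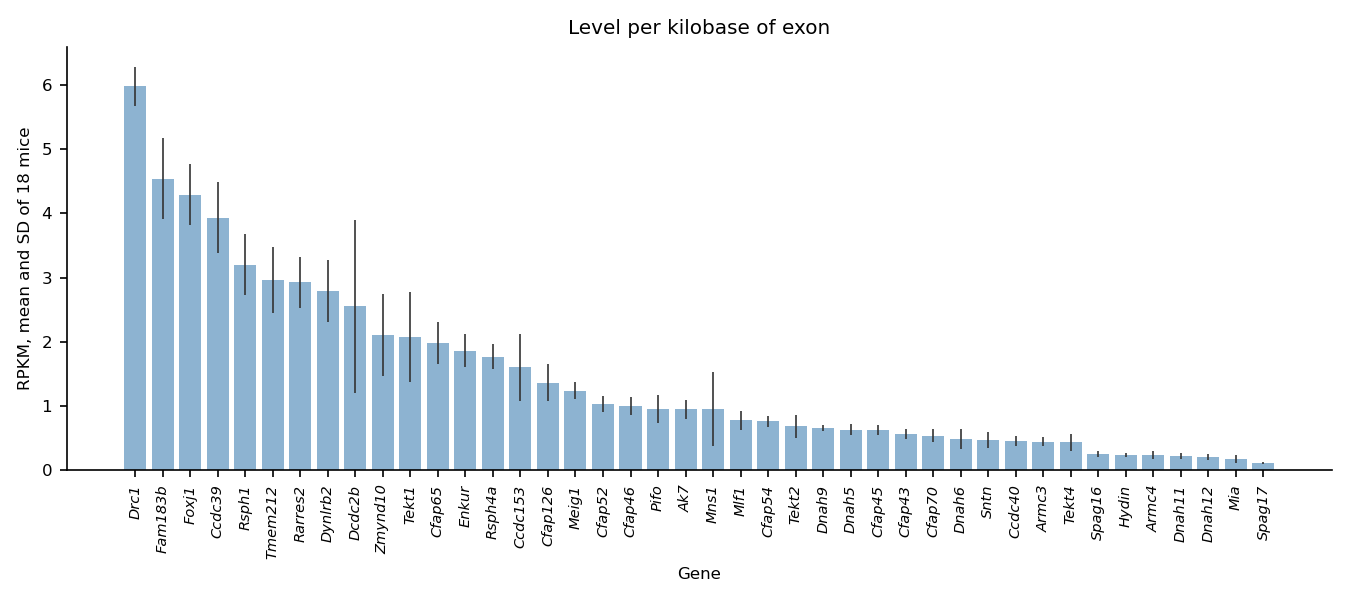
Level of each of the 42 genes in RPKM (bars, mean over 18 mice; lines, SD), ordered from high to low. Drc1 leads at 5.98 and Spag17 is last at 0.111; the lines are long for Dcdc2b, Tekt1, Ccdc153, Mns1 and Zmynd10, genes whose level differed between genotypes.

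In CPM, where a gene is compared only with itself, Foxj1 ranged from 10.1 to 14.3 in APOE2 mice with a median of 10.9, from 9.68 to 12.2 in APOE3 with a median of 10.9, and from 9.73 to 12.7 in APOE4 with a median of 11.6. The 3 groups overlapped, and 1 APOE2 mouse lay above all others. Between APOE2 and APOE3 the log2 fold change of Foxj1 was 0.04 (SE 0.0882, 95% interval -0.147 to 0.219, edgeR adjusted p = 0.878), and between APOE4 and APOE3 it was 0.06 (SE 0.0883, edgeR adjusted p = 0.927). Drc1 varied least in APOE3, from 15.5 to 16.2 CPM with a median of 16, compared with 14.4 to 17.4 (median 15.8) in APOE2 and 15.1 to 17.3 (median 16.8) in APOE4. Fam183b ranged from 2.14 to 3.42 CPM in APOE2 (median 2.68), from 2.16 to 2.83 in APOE3 (median 2.45) and from 2.08 to 2.99 in APOE4 (median 2.62). For both genes the groups overlapped and no genotype pair passed the test. In RNA from a whole hemibrain, fewer cells of a type and less RNA per cell cannot be told apart.

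The comparison of APOE2 with APOE3 asks what the APOE2 allele goes along with, relative to the common human allele. Of the 42 genes, 6 passed the test, 3 higher and 3 lower in APOE2. Over all genes tested, 3.91% were called, 1.9% higher and 2.01% lower. DESeq2 called the same 6 members and 4.98% of all genes, and limma voom the same 6 and 3.74%. At an unadjusted p under 0.05 in edgeR there were 11 of the 42, beside 16.8% of all genes. The 42 genes had a median log2 fold change of 0.0416 with 27 above 0, beside a median of 0.00344 and 51.2% above 0 over all genes tested. The 6 called genes were also the ones whose 6 APOE2 and 6 APOE3 mice did not overlap in CPM, which held for 3.23% of all genes. The titles of the APOE2 mice end in the letter c or in none, and those of the APOE3 and APOE4 mice in d, e, f or g. The labels do not explain these letters and APOE2 shares none of them with the other genotypes, so in both APOE2 comparisons the genotype and whatever the letters mark cannot be told apart.

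Among the genes that were higher, Mns1 had the largest difference. Its protein lies inside the doublet microtubules and is needed for normal sperm tails and cilia. It was at 7.95 to 10.7 CPM in APOE2 mice (median 9.22), at 2.46 to 3.36 in APOE3 (median 2.9) and at 2.66 to 3.38 in APOE4 (median 3.07). Every APOE2 mouse was above every other mouse by a wide gap, while APOE3 and APOE4 overlapped. The level rose 3.19-fold over APOE3, a log2 fold change of 1.67 (SE 0.0901, edgeR adjusted p = 2.7e-12).

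Tekt1 encodes a tektin, one of the filament proteins of the doublet wall. It ranged from 4.1 to 5.45 CPM in APOE2 (median 4.85), from 1.97 to 3.19 in APOE3 (median 2.81) and from 2.24 to 2.72 in APOE4 (median 2.54). All APOE2 mice were again above all others. The log2 fold change over APOE3 was 0.83 (SE 0.0982, edgeR adjusted p = 2.55e-06), a 1.78-fold rise. Zmynd10 is needed in the cytoplasm to assemble dynein arms before they enter the cilium. It ranged from 4.74 to 7.22 CPM in APOE2 (median 5.97), from 2.67 to 4.72 in APOE3 (median 3.64) and from 3.24 to 4.8 in APOE4 (median 3.58). The lowest APOE2 mouse was just above the highest APOE3 mouse and overlapped the highest APOE4 mouse. Zmynd10 rose by 0.73 on the log2 scale over APOE3 (SE 0.126, edgeR adjusted p = 0.000595).

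Of the genes that were lower, Dcdc2b moved most. It encodes a member of the doublecortin family of microtubule-binding proteins. It ranged from 0.7 to 1.44 CPM in APOE2 (median 1.06), from 3.69 to 5.41 in APOE3 (median 4.51) and from 3.67 to 5.86 in APOE4 (median 5.04). The highest APOE2 mouse was far below the lowest of the other genotypes. Relative to APOE3 its level fell to 0.244 of the APOE3 level, a log2 fold change of -2.04 (SE 0.146, edgeR adjusted p = 5.32e-10).

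Ccdc153 is a coiled-coil protein used as a marker of ependymal cells in single-cell atlases. It ranged from 1.7 to 2.33 CPM in APOE2 (median 1.92), from 3.35 to 4.48 in APOE3 (median 3.84) and from 2.75 to 4.55 in APOE4 (median 4.24). No APOE2 mouse reached the lowest mouse of another genotype. Its log2 fold change from APOE3 was -1.01 (SE 0.118, edgeR adjusted p = 2.16e-06), a level of 0.496 of that in APOE3. The other listed markers of the same cell layer did not pass: Tmem212, a membrane protein, had a log2 fold change of 0.03 (SE 0.133, edgeR adjusted p = 0.938), and Rarres2, the secreted protein chemerin, of 0.14 (SE 0.101, edgeR adjusted p = 0.508).

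Tekt2, another tektin, ranged from 0.681 to 1.05 CPM in APOE2 (median 1), from 1.28 to 1.83 in APOE3 (median 1.65) and from 1.03 to 1.76 in APOE4 (median 1.28). The APOE2 and APOE3 mice did not overlap, but APOE2 and APOE4 mice did. Its log2 fold change from APOE3 was -0.72 (SE 0.147, edgeR adjusted p = 0.00357). The listed tektins thus went different ways, since Tekt1 rose, Tekt2 fell and Tekt4 did not pass the test with a log2 fold change of 0.05 (SE 0.23, edgeR adjusted p = 0.94).

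**Figure D2:**
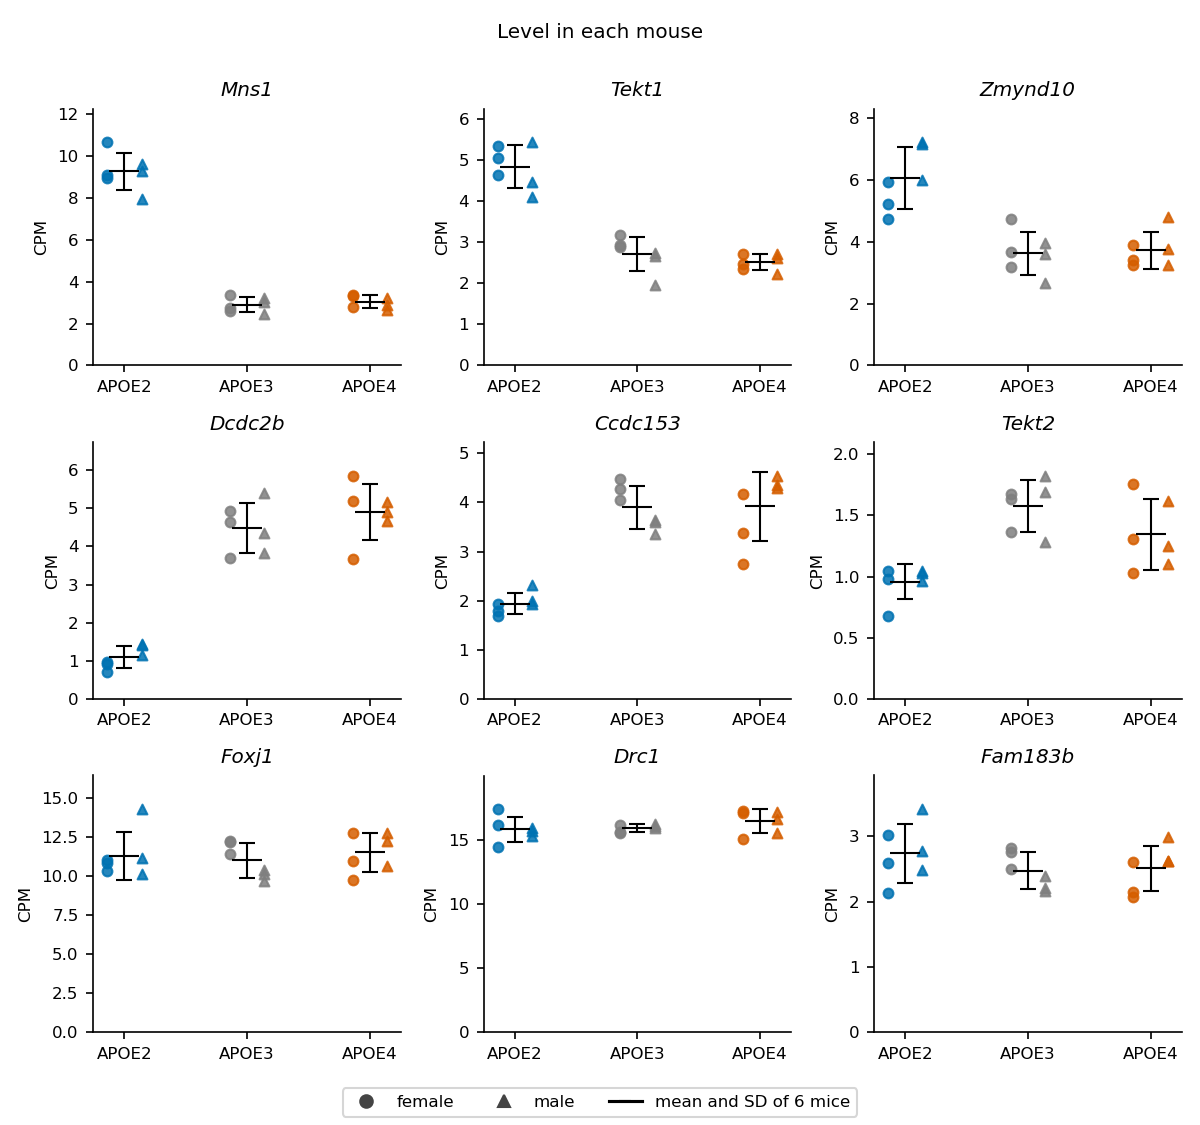
CPM of selected genes in each of the 18 mice, by genotype, with females and males marked separately and the group mean as a line. The APOE2 mice stand above the others for Mns1 and Tekt1 and below them for Dcdc2b and Ccdc153; for Foxj1 the 3 genotypes overlap.

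By role, no dynein heavy chain passed in this comparison (Dnah5, Dnah6, Dnah9, Dnah11 and Dnah12, with log2 fold changes from -0.14 in Dnah5 to 0.22 in Dnah11). None of the 8 central pair genes passed, which were Spag16, Spag17, Hydin, Cfap46, Cfap54, Cfap65, Cfap70 and the adenylate kinase Ak7, with values from -0.11 in Cfap54 to 0.30 in Spag16. Neither listed radial spoke gene passed (Rsph1 at 0.07, Rsph4a at 0.08). The 3 genes listed under the ruler and the nexin link did not pass either, with Ccdc39, Ccdc40 and Drc1 at log2 fold changes of 0.04, 0.14 and -0.01. Each gene was listed under a single role, and Ccdc153, which was called, was listed as an ependymal marker, so a role may hold further members. Among tektins and inner microtubule proteins 2 were called higher and 1 lower, and the 7 that were not called (Tekt4, Cfap45, Cfap52, Cfap126, Enkur, Pifo and Meig1) had log2 fold changes from -0.07 in Cfap45 to 0.37 in Pifo. Of the dynein assembly and docking genes and the dynein light chain Dynlrb2, Zmynd10 alone was called, with Armc4 at 0.21 and Dynlrb2 at -0.01. Of the other cilium proteins Dcdc2b alone was called, and Cfap43, Sntn, Mlf1, Armc3 and Fam183b had values from -0.12 in Sntn to 0.34 in Mlf1. The 36 genes that were not called had a median absolute log2 fold change of 0.0889 and a largest of 0.37, that of Pifo, a ciliary protein with 0.781 to 1.5 CPM in APOE2 (median 1.24) and 0.507 to 1.21 in APOE3 (median 0.972). Their 95% intervals, each for a single gene, reached from -0.747 in Mia to 0.737 in Pifo on the log2 scale, so that differences of moderate size in the lowest genes were not detectable.

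**Figure D3:**
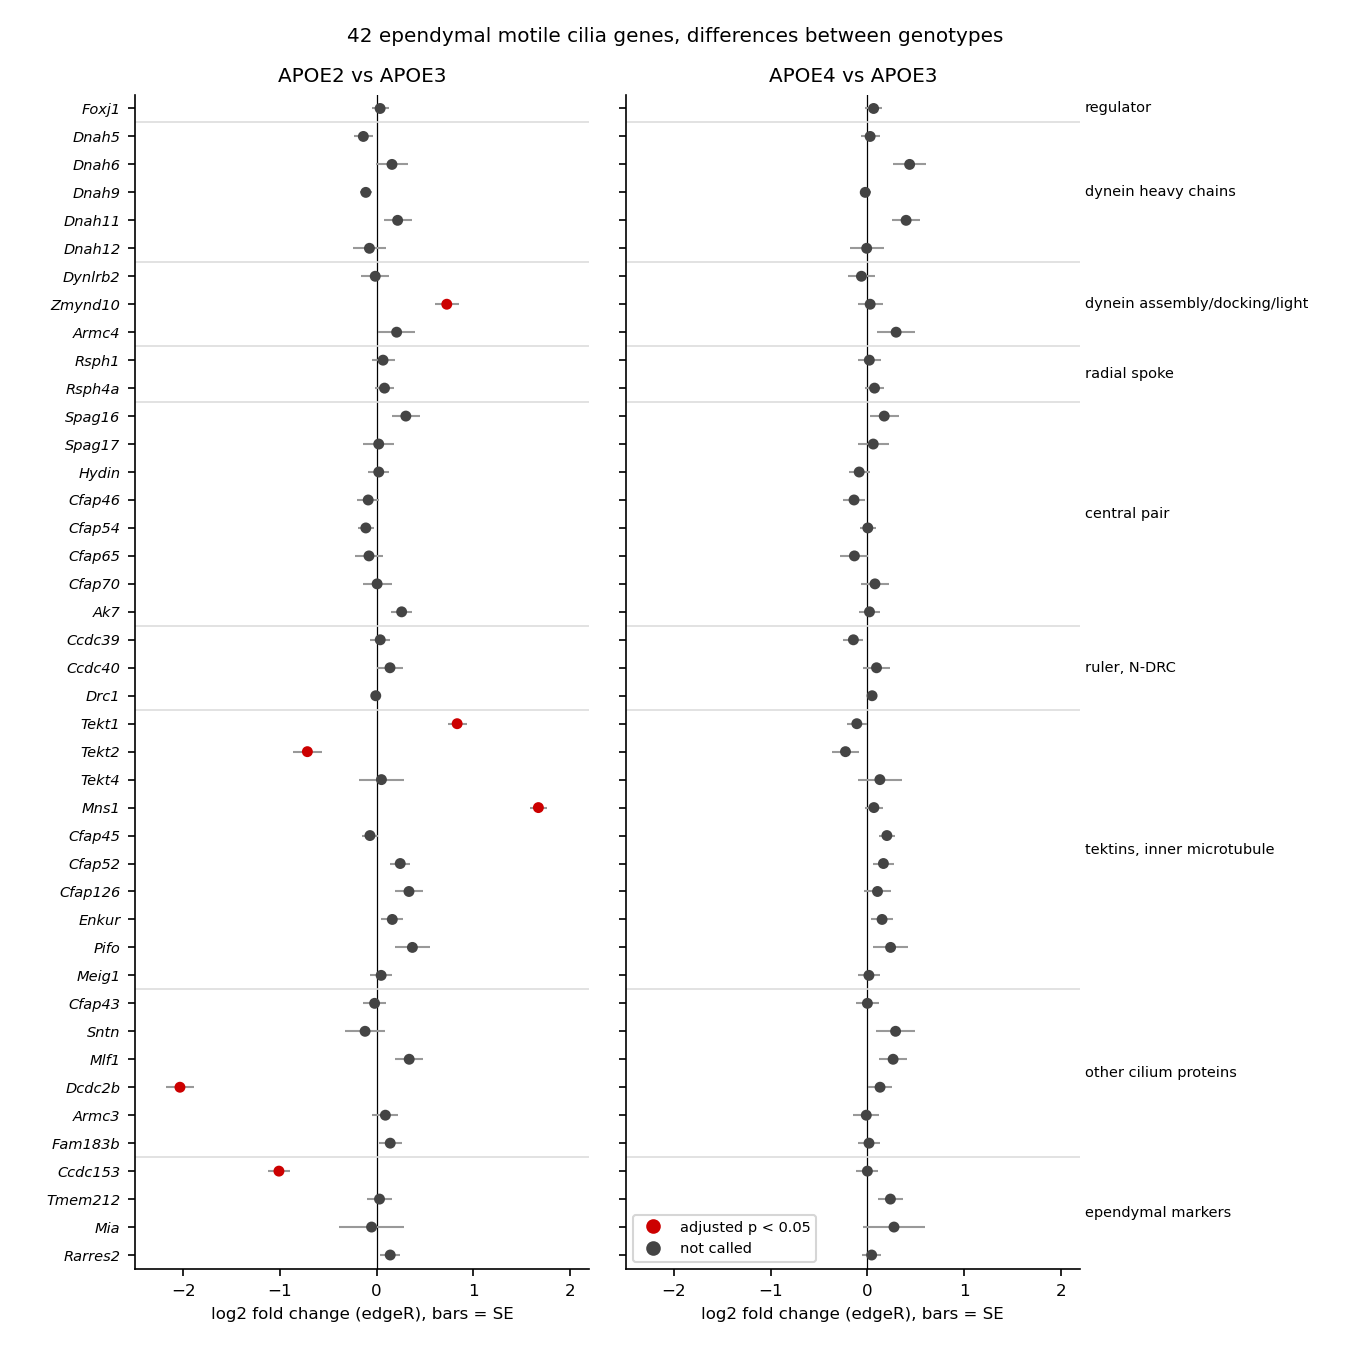
Log2 fold changes (points) and SE (bars) of the 42 genes in APOE2 and in APOE4 mice, each relative to APOE3, ordered by role; red points have an edgeR adjusted p under 0.05. The 6 red points are Mns1, Tekt1 and Zmynd10 to the right and Dcdc2b, Ccdc153 and Tekt2 to the left, all in the APOE2 panel; the APOE4 panel has none.

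The comparison of APOE2 with APOE4 uses the same APOE2 mice, so it is not a separate test of them. It gave calls for the same 6 genes in the same directions, 3 higher and 3 lower, while 6.53% of all genes were called, 3.01% higher and 3.52% lower. DESeq2 called 7 members, with Cfap45 added, and 8.15% of all genes, limma voom called 5, without Tekt2, and 6.68%, and 9 members had an unadjusted p under 0.05 in edgeR beside 20.2% of all genes. Relative to APOE4, the log2 fold change was 1.61 for Mns1 (SE 0.0892, edgeR adjusted p = 4.11e-12), 0.94 for Tekt1 (SE 0.0982, edgeR adjusted p = 3.28e-07) and 0.70 for Zmynd10 (SE 0.125, edgeR adjusted p = 0.000665). For Dcdc2b it was -2.17 (SE 0.145, edgeR adjusted p = 1.12e-10) and for Ccdc153 -1.01 (SE 0.117, edgeR adjusted p = 1.56e-06). Tekt2 was at the edge of the threshold, with a log2 fold change of -0.49 (SE 0.148, edgeR adjusted p = 0.049). Its call was lost in 14 of 18 fits that each left out 1 library, with adjusted p values up to 0.159, and also with limma voom (-0.48, adjusted p = 0.0624) and in a fit of only the 12 libraries compared (-0.49, adjusted p = 0.0984). Mice of the 2 genotypes did not overlap in CPM for 4 of the 6 genes, compared with 3.48% of all genes.

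In the authors' deposited table, the same 6 genes had an adjusted p under 0.05 between APOE2 and APOE3, beside 4.19% of all genes with an adjusted p there. For Mns1 the authors' deposited table gives a log2 fold change of 1.67 (SE 0.093) and for Dcdc2b of -2.04 (SE 0.147). Between APOE2 and APOE4 the authors' deposited table has 7 such genes, the added one being Cfap45, an inner microtubule protein, at -0.27 with an adjusted p of 0.0433, beside 7.21% of all genes.

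The comparison of APOE4 with APOE3 asks what goes along with the allele that is the main common genetic risk factor for late-onset Alzheimer's disease. None of the 42 genes passed the edgeR test, while 0.773% of all genes were called. APOE4 mice were higher in 0.429% of all genes and lower in 0.344%. At an unadjusted p under 0.05 there were 3 of 42, Dnah6, Dnah11 and Cfap45, beside 8.78% of all genes, and DESeq2 and limma voom called 0 each, beside 1.44% and 0.731% of all genes. The median log2 fold change of the 42 genes was 0.0551, with 32 above 0, beside a median of 0.00422 and 52% above 0 over all genes. The genes of a mouse deviate together, so the 32 are not separate observations. The groups of 6 mice overlapped for every one of the 42, compared with 1.48% of all genes that did not. All 95% intervals of single genes lay between -0.521 and 0.946 on the log2 scale.

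The largest fold change in that pair was that of Dnah6, an inner arm dynein heavy chain, at 0.44 on the log2 scale (SE 0.169, edgeR adjusted p = 0.405). Only 2 of the 6 APOE4 mice were high. Dnah6 was at 11.8 CPM in APOE4 mouse 1 and 11.9 in APOE4 mouse 3, both females, while the other 4 APOE4 mice were between 5.02 and 6.19 CPM, with APOE3 between 4.3 and 6.27 CPM and APOE2 between 5.26 and 7.66 CPM. Those mice did not stand apart in the same way in Dnah5 and Dnah9, outer arm heavy chains: Dnah5 was within 9.33 to 11.6 CPM and Dnah9 within 10 to 11.2 CPM in all 6 APOE4 mice. They were the highest APOE4 mice in Tekt4 too, at 1.34 and 1.29 CPM, with the other 4 between 0.482 and 0.835 CPM. Both have titles that end in the letter f, which no other APOE4 title does.

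The genes that differed were placed unevenly in the genome. The 6 called genes lie on 3 chromosomes. Both members on chromosome 4, Tekt2 (126322121 to 126325688, GRCm38) and Dcdc2b (129608331 to 129614257), were called. So were all 3 members on chromosome 9, Ccdc153 (44240676 to 44247306), Mns1 (72438011 to 72462025) and Zmynd10 (107547298 to 107551319). On chromosome 11, 1 of 6 members was called, Tekt1 (72344722 to 72362442), and Foxj1 (116330704 to 116335399) was not. None of the 31 members on other chromosomes was called. Over all tested genes, 11.8% on chromosome 4, 13.3% on chromosome 9 and 5.64% on chromosome 11 were called in APOE2 compared with APOE3. Whether the members' calls are tied to these regions or to the allele of APOE was not tested.

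Genes near the called members were often called too. Within 5 Mb of Ccdc153, 30 of 98 other tested genes were called (30.6%), 11 higher and 19 lower. The shares were 17.6% around Dcdc2b, 15.1% around Mns1, 15% around Tekt2, 12.3% around Tekt1 and 11.4% around Zmynd10. Tekt2 and Dcdc2b are 3286 kb apart, so they share neighbours. Around the 36 members that were not called, the share ran from 0% to 22.2% with a median of 1.76%. The high end was Fam183b, with 22.2%, so a member could sit among called genes and not differ itself.

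Neighbours moved in both directions, and not always with the member. Next to Tekt1 the interferon-induced gene Xaf1, 31 kb away, had 30 ± 3.03 CPM in APOE2 mice and 5.67 ± 0.166 CPM in APOE3 mice (SD, n = 6), a log2 fold change of 2.40 (SE 0.0637, edgeR adjusted p = 4.79e-18). Alox8, a lipoxygenase further along the same chromosome, fell by 2.10 on the log2 scale (SE 0.0906, edgeR adjusted p = 4.05e-14). In the neighbourhood of Ccdc153, which fell, the chaperone gene Hspa8 had a log2 fold change of -3.00 (SE 0.0724, edgeR adjusted p = 2.74e-18) and Fxyd2, a regulator of the sodium pump, of 1.53 (SE 0.102, edgeR adjusted p = 1.36e-10). Cbl, a ubiquitin ligase 6.63 kb from Ccdc153 and chosen after its values were seen, fell by 0.74 (SE 0.0661, edgeR adjusted p = 3.29e-08). Within 50 kb of Ccdc153, 2 of 5 tested neighbours were called, lower. The count was 1 of 2, higher, around Tekt1 and around Mns1, and 0 of 4 around Tekt2. Dcdc2b had 2 higher and 2 lower of 8, and Zmynd10 had 2 higher and 3 lower of 13. Over all genes tested, 3.91% were called. Around Dcdc2b and Tekt2, the histone deacetylase gene Hdac1 fell by 0.87 (SE 0.0835, edgeR adjusted p = 8.82e-08). Other neighbours rose, Sytl1 near Dcdc2b by 1.55 (SE 0.112, edgeR adjusted p = 5.73e-10) and Gm12901 near Tekt2 by 6.58 (SE 0.444, edgeR adjusted p = 6.58e-09). Gm12901 was at 0.568 CPM in APOE2 mice and 0.00353 CPM in APOE3 mice. Within 5 Mb, called neighbours were 12 higher and 21 lower around Dcdc2b, and 6 higher and 15 lower around Tekt2. Near Mns1, Gm37983 rose by 2.53 (SE 0.29, edgeR adjusted p = 1.72e-06) and Pygo1, a cofactor of Wnt signalling, by 0.27 (SE 0.0456, edgeR adjusted p = 0.000358). Called neighbours of Mns1 within 5 Mb were 7 higher and 4 lower. Around Zmynd10, which rose, 3 called neighbours were higher and 17 lower, with Bfsp2 at -3.98 (SE 0.177, edgeR adjusted p = 6.59e-14). Within 5 Mb of Tekt2, the call of smallest p was Dcdc2b itself.

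**Figure D4:**
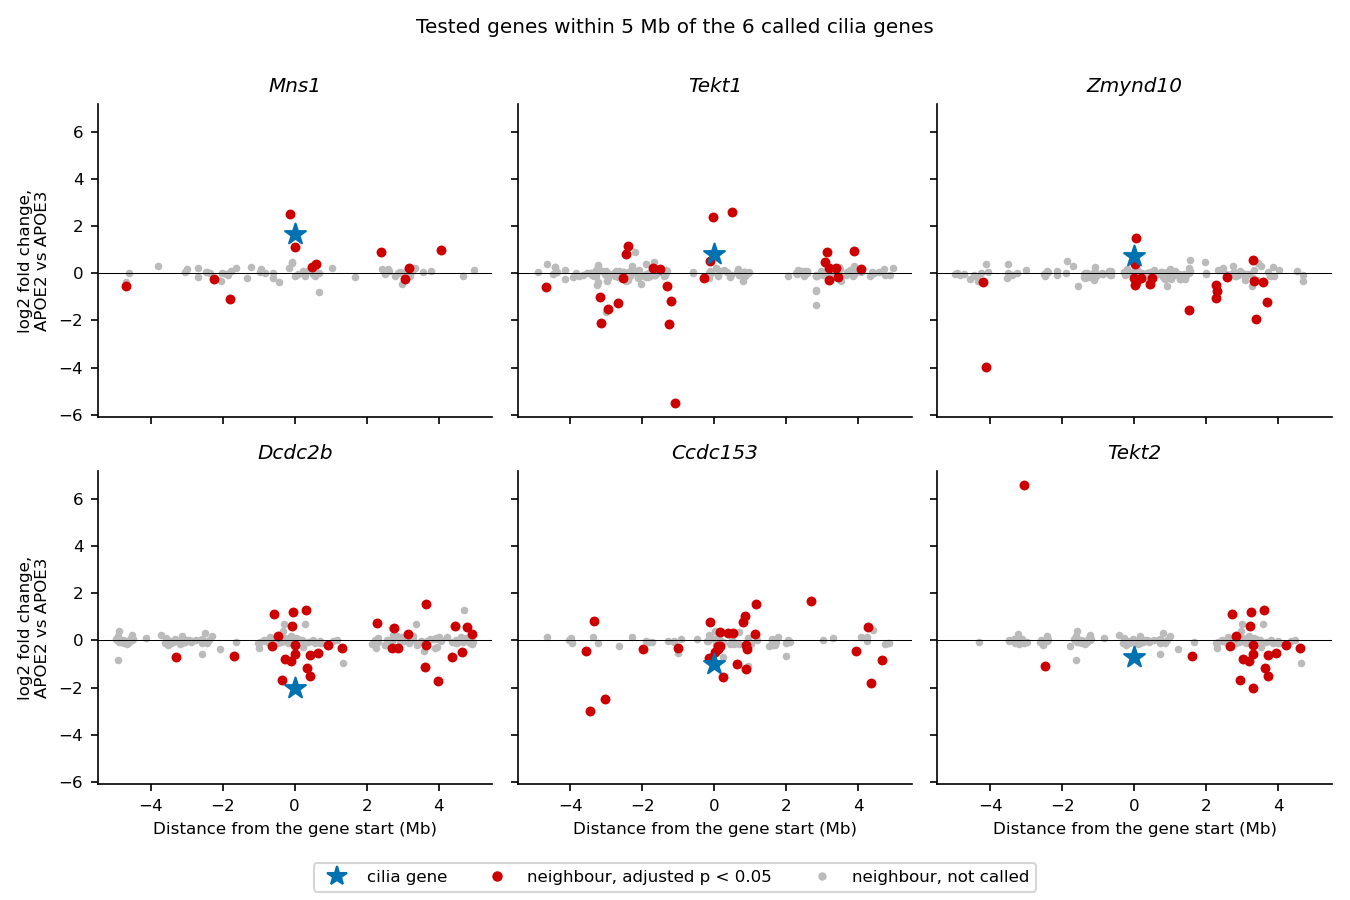
Log2 fold change between APOE2 and APOE3 (vertical axis) of all tested genes within 5 Mb of each of the 6 called genes, by distance in Mb; red points have an edgeR adjusted p under 0.05 and the member stands at 0. Called neighbours lie both above and below 0 in each of the 6 panels.

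Some members share exon sequence with a gene on the opposite strand, and whether the counting used strand is not given in the sources used here, so their reads could not be told apart with certainty. Mns1 shares 2842 bases, 53% of its exons, with Tex9, which runs the other way. Tex9 had 12.6 CPM in APOE2 mice and 13.6 CPM in APOE3 mice, a log2 fold change of -0.11 (edgeR adjusted p = 0.439), so it did not pass the test where Mns1 rose. Gm36948, an unspliced transcript model within Mns1 on the same strand, was called higher as well, at 0.582 ± 0.184 CPM in APOE2 and 0.273 ± 0.0737 CPM in APOE3 (log2 fold change 1.10, SE 0.229, edgeR adjusted p = 0.00405). Tekt2 shares 20.8% of its exon bases with Gm12945, which was at 0.0255 CPM in APOE2. Zmynd10 and Dcdc2b share 10.1% and 1.31% with other genes, Gm34106 and Tmem234. Among the members that were not called, Rarres2 shares 33.6% of its exon bases with Lrrc61 on the opposite strand, a gene with 27.2 CPM in APOE3 mice compared with 7.43 CPM for Rarres2. Mia shares 41.2% with Gm21983 on the same strand, which had no reads. Ccdc39 shares 16.9% with Ttc14, a gene with 202 CPM in APOE3 mice compared with 30 CPM for Ccdc39.

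The mice of a genotype differed among themselves across many of the 36 genes that were not called. APOE2 mouse 5, a male, had the highest level of all 18 mice in 9 of the 36 genes and was above the mean in 26, with a median deviation of 0.225 on the log2 scale. At the other end, APOE2 mouse 3, a female, was below the mean in 29, with a median deviation of -0.196, and APOE4 mouse 2, a female, was the lowest of all in 8. A list of 20 choroid plexus genes, whose tissue is also ciliated and lies in the ventricles, was highest in the same APOE2 mouse 5, with a summed level of 2012 CPM, and low in APOE2 mouse 3, at 974.7 CPM. APOE4 mouse 2 went the other way, with a sum of 1514 CPM, the highest of the 6 APOE4 mice. Most of the sum came from Ttr and Enpp2, with means of 689 and 610 CPM in APOE2 compared with 1471 CPM for the whole list. The part of these 20 genes in the spread of the cilia genes was not tested.

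**Figure D5:**
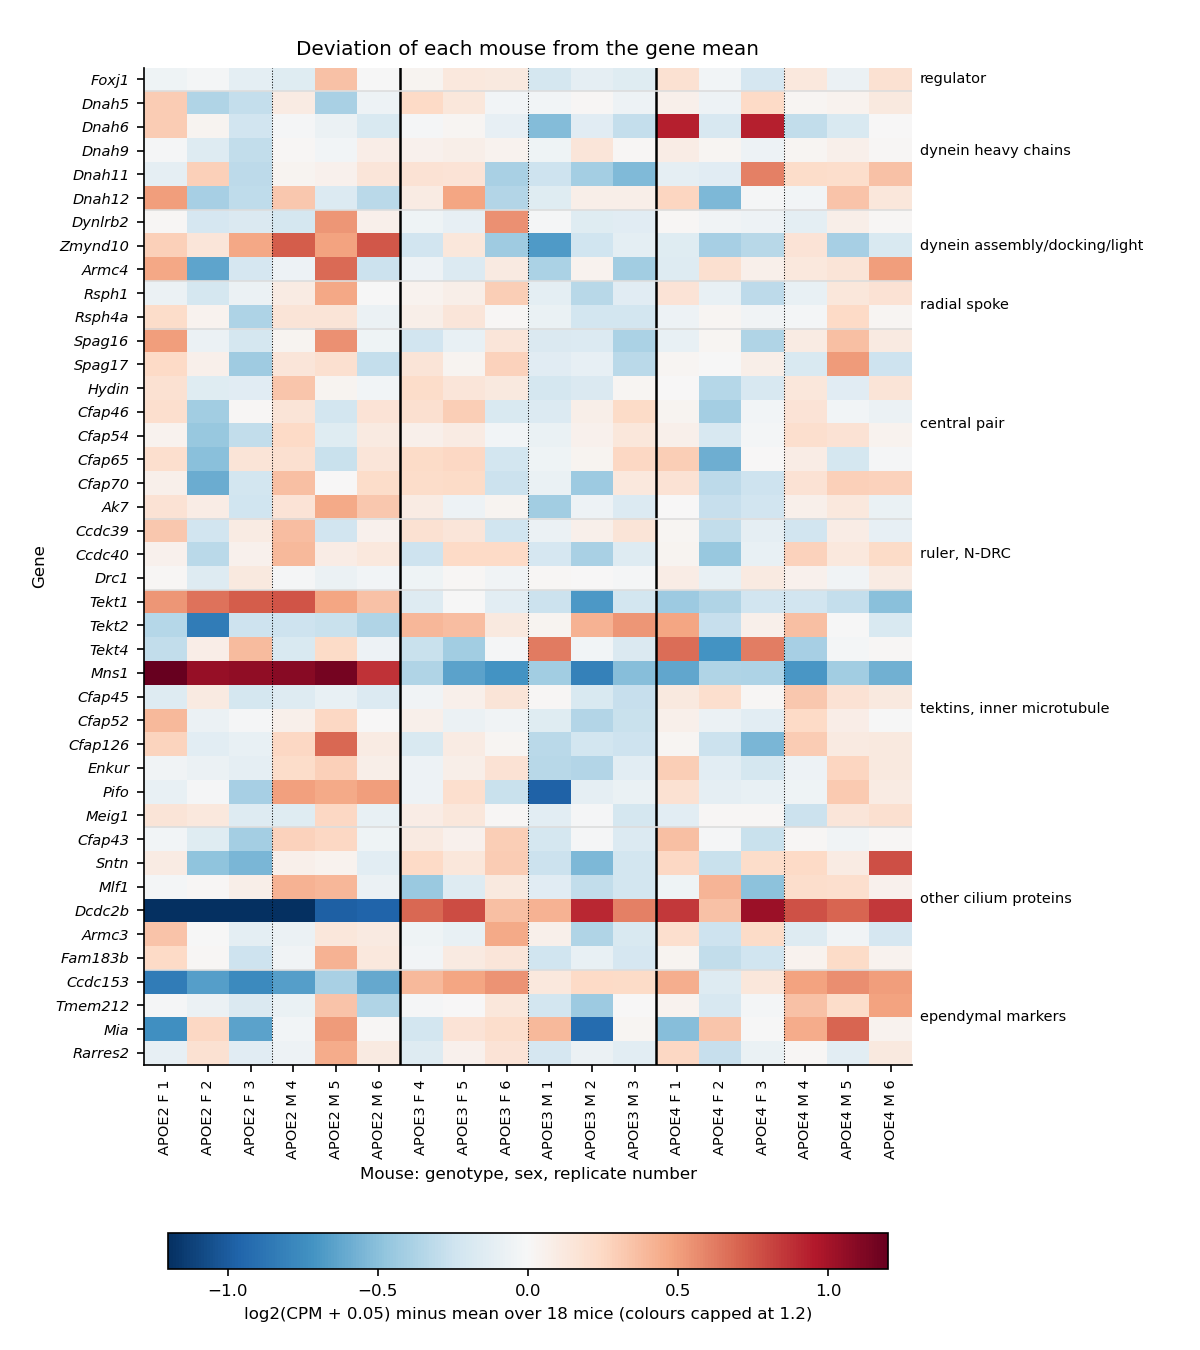
Deviation of each gene (rows, grouped by role) in each mouse (columns, grouped by genotype) from the gene's mean over 18 mice, on the log2 scale. Rows of Mns1, Tekt1, Zmynd10, Dcdc2b, Ccdc153 and Tekt2 change colour between APOE2 and the rest, whereas most other rows vary from mouse to mouse within a genotype.

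Levels of Foxj1 were compared with those of 10 genes across the 18 mice on the log2 CPM scale, with permutation tests of 100000 resamples adjusted over the 10. Rsph1, a radial spoke protein, followed Foxj1 with a Pearson r of 0.748 (n = 18, permutation adjusted p = 0.0043) and a Spearman rho of 0.662 (permutation adjusted p = 0.0337). Tmem212 had an r of 0.64 (permutation adjusted p = 0.0214) and a rho of 0.614 (permutation adjusted p = 0.0392). Without the mice farthest from the median of Foxj1, APOE2 mouse 5 and APOE4 mouse 6, r fell to 0.581 for Rsph1 (permutation adjusted p = 0.188) and to 0.453 for Tmem212 (permutation adjusted p = 0.376). Neither passed the threshold over these 16 mice, where the unadjusted permutation p was 0.0188 for Rsph1 and 0.0775 for Tmem212. Hydin, a central pair protein, had an r of 0.377 (permutation adjusted p = 0.311) and Dnah5, an outer arm dynein, of -0.198 (permutation adjusted p = 0.616), and the choroid plexus gene Ttr, the carrier transthyretin, of 0.476 (permutation adjusted p = 0.152). For Folr1, also of the choroid plexus, r was 0.319 (permutation adjusted p = 0.392), and for the astrocyte gene Aqp4 it was -0.0735 (permutation adjusted p = 0.84).

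The called genes Ccdc153, Mns1 and Dcdc2b fall into separate clusters by genotype, so no pooled value is given. Within the 6 APOE2 mice r with Foxj1 was 0.839 for Ccdc153, 0.106 for Mns1 and 0.486 for Dcdc2b. The unadjusted permutation p was 0.0545, 0.752 and 0.347 in that order. APOE2 mouse 5 was the highest of these 6 in both Foxj1 and Ccdc153, at 14.3 and 2.33 CPM. Within the 12 APOE3 and APOE4 mice r was 0.629 for Ccdc153, -0.473 for Mns1 and 0.0865 for Dcdc2b. There the unadjusted permutation p was 0.027, 0.119 and 0.784. With the means of genotype and sex removed, Ccdc153 followed Foxj1 at an r of 0.714 over all 18 mice (permutation adjusted p = 0.00425) and a rho of 0.754 (permutation adjusted p = 0.0041). Without the 2 mice farthest from the median of Foxj1 on this scale, r was 0.671 (permutation adjusted p = 0.0309). These 2 mice were chosen anew and need not be the 2 left out above. Ccdc153 thus differed in level between the genotypes and also varied along with Foxj1 from mouse to mouse. Residuals were permuted freely although means of genotype and sex had already been fitted, so these p-values may be too small. The values without 2 mice use residuals of the fit to all 18. Rsph1 kept an r of 0.764 with these means removed (permutation adjusted p = 0.0017) and 0.65 without the 2 mice left out on that scale (permutation adjusted p = 0.0309). Tmem212 had an r of 0.658 by this measure (permutation adjusted p = 0.0106). Without the 2 mice its r was 0.53 and did not pass (permutation adjusted p = 0.0753). Mns1, Dcdc2b and Ttr did not pass by the same measure, with r of -0.344, 0.298 and 0.539 (permutation adjusted p = 0.229, 0.287 and 0.0539).

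Between females and males none of the 42 genes passed the edgeR test, while 0.132% of all genes were called. At an unadjusted p under 0.05 there were 2 of 42, Dnah6 and Cfap54, beside 8.46% of all genes, and DESeq2 and limma voom called 0 each, beside 0.312% and 0.132%. Values within each genotype are given as a description, since the genes of a mouse deviate together and are not separate observations. In APOE3, females were higher in 37 of the 42 genes, with a median difference between female and male means of 0.226 on the log2 scale of CPM plus 0.05, and all 3 females were above all 3 males in 16, compared with 5.79% of all genes, and the reverse held for 0, compared with 4.1%. In APOE2, males were higher in 32 with a median of -0.154, and in APOE4 males were higher in 33 with a median of -0.122. All 3 males were above all 3 females in 6 genes of each of these genotypes, compared with 5.7% of all genes in APOE2 and 6.97% in APOE4, and all 3 females were above all 3 males in 0, compared with 5.91% and 6.14%.

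The difference itself, tested as an interaction of sex and genotype in edgeR, passed for none of the 42 genes. The smallest adjusted p was 0.71 between APOE2 and APOE3, 0.399 between APOE4 and APOE3 and 1 between APOE2 and APOE4, and over all genes 0%, 0.0106% and 0% were called. At an unadjusted p under 0.05 there were 14, 13 and 2 of the 42, beside 5.79%, 6.81% and 2.57% of all genes, and DESeq2 and limma voom called 0 members in each, beside 0.0371%, 0.194% and 0.00529% of all genes for DESeq2 and 0%, 0.0318% and 0% for limma voom. The letters at the end of the mouse titles, which the labels do not explain, go with sex in APOE3 and APOE4, so sex and whatever the letters stand for cannot be told apart in these genotypes.

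Other genes of cilia were compared through lists written for this purpose. Of 108 motile cilia genes outside the members 106 were tested, and Fank1, a gene of ciliated and germ cells, alone was called between APOE2 and APOE3. Its level was 3.2 ± 0.282 CPM in APOE2, 4.88 ± 0.309 in APOE3 and 3 ± 0.272 in APOE4 (SD, n = 6), so APOE3 stood above the others, with log2 fold changes of -0.61 for APOE2 (SE 0.0822, edgeR adjusted p = 1.98e-05) and -0.70 for APOE4 (SE 0.0828, edgeR adjusted p = 1.16e-05). Mdh1b, a malate dehydrogenase relative, was the only call between APOE2 and APOE4 on that list, higher in APOE2 by 0.65 (SE 0.137, edgeR adjusted p = 0.00346). It was at 1.67 ± 0.154 CPM in APOE2, 1.49 ± 0.201 in APOE3 and 1.06 ± 0.229 in APOE4. The list had a median log2 fold change of 0.0142 between APOE2 and APOE3, 0.0264 between APOE4 and APOE3 and 0.0101 between APOE2 and APOE4, and no call between the sexes.

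Of 23 regulators of ciliogenesis 21 were tested. Nfia, a transcription factor of glia on chromosome 4, was higher in APOE2 by 0.31 relative to APOE3 (SE 0.0617, edgeR adjusted p = 0.00268) and by 0.28 relative to APOE4 (SE 0.0616, edgeR adjusted p = 0.00542). Plk4, the kinase of centriole duplication, and Gmnn, geminin, were called between APOE2 and APOE4 alone, higher in APOE2 by 0.31 (SE 0.0802, edgeR adjusted p = 0.02) and 0.29 (SE 0.0843, edgeR adjusted p = 0.0367). Plk4 was at 5.64 ± 0.636 CPM in APOE2, 5.52 ± 0.101 in APOE3 and 4.56 ± 0.432 in APOE4 (SD, n = 6). Gmnn was at 3.09 ± 0.245, 3.18 ± 0.264 and 2.52 ± 0.189 CPM. For both genes APOE4 had the lowest mean, and APOE2 was near APOE3. The RFX factor Rfx3 was at 71.3 ± 9.27 CPM in APOE2, 67.9 ± 3.9 in APOE3 and 66.7 ± 8.99 in APOE4 and was not called.

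Intraflagellar transport carries parts along the cilium, and 41 of 42 listed genes of it and of the BBSome were tested. Ift46, which lies on chromosome 9 (44767908 to 44793447) in the neighbourhood of Ccdc153, rose in APOE2 by 0.30 over APOE3 (SE 0.0398, edgeR adjusted p = 1.58e-05) and by 0.26 over APOE4 (SE 0.0397, edgeR adjusted p = 0.000105). Ift122 was lower in APOE4 than in APOE3 by a log2 fold change of -0.25 (SE 0.0431, edgeR adjusted p = 0.002), and higher in APOE2 than in APOE4 by 0.21 (SE 0.043, edgeR adjusted p = 0.00241). The list's median log2 fold change was 0.0236, 0.00331 and 0.0139 in the pairs APOE2 and APOE3, APOE4 and APOE3, and APOE2 and APOE4.

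Markers of other cells near the ventricles were read beside these results. All 20 choroid plexus genes had values above 0 in APOE2 relative to APOE3, with a median log2 fold change of 0.411, beside 51.2% above 0 over all genes tested. The genes of a mouse deviate together, so the 20 are not separate observations. The test was passed by 2 of them, beside 3.91% of all genes. These were the prolactin receptor Prlr (0.76, SE 0.151, edgeR adjusted p = 0.00484) and the collagen Col8a1 (0.48, SE 0.102, edgeR adjusted p = 0.00523). The summed level of the 20 genes ranged from 974.7 to 2012 CPM in APOE2, 1051 to 1424 in APOE3 and 970 to 1514 in APOE4, and no gene of the list was at 0. In APOE2 the sum was 1742, 1767 and 2012 CPM in mice 1, 4 and 5. It was 1162, 974.7 and 1168 CPM in APOE2 mice 2, 3 and 6, none of them above the APOE3 range. None of the 20 genes passed in the other pairs, where the medians were 0.202 for APOE4 relative to APOE3 and 0.232 for APOE2 relative to APOE4. Lists of 10 tanycyte genes, 9 genes of neuroblasts and cycling cells and 8 genes of meningeal fibroblasts had no call in any pair or between the sexes, with medians of -0.0724, 0.0239 and 0.398 between APOE2 and APOE3. Of 8 astrocyte genes, the filament gene Gfap was higher in APOE2, by 0.36 relative to APOE3 (SE 0.0785, edgeR adjusted p = 0.008) and by 0.38 relative to APOE4 (SE 0.0785, edgeR adjusted p = 0.00381). The part of these markers in the results on the 42 genes was not tested.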

How the data were processed

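PolyA RNA of 18 hemibrains was profiled with a stranded kit and single reads, per the labels' protocols, with all libraries pooled over the same lanes. The authors deposited raw counts by symbol. The submitters' processing notes name STAR 2.7.0, GRCm38/mm10, featureCounts and DESeq2. Which annotation and strand setting the counting used is not stated there. Also deposited by the authors were the mean signal, log2 fold changes, Wald scores and p-values of their comparisons, per the file headers. Of 52459 symbols, 26 had been turned into dates, took 0.304% to 0.322% of counts and were left out.

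Counts were tested with edgeR 4.0.16 in R 4.3.3 (TMM scaling, filterByExpr, robust quasi-likelihood F test) in a single fit of the 18 libraries, with additive terms for genotype and for sex; 18891 genes were kept. The interaction used 1 mean per genotype and sex. CPM follow TMM scaling, and RPKM divide CPM by the exon length of GENCODE M21. Promoters are from RefSeq. Each mouse has its own identifier and replicate numbers only name mice; nothing says that littermates were avoided, so p-values measure the spread between these mice. Alternatives were other scaling and filters, DESeq2 1.42.0, limma 3.58.1 voom, no sex term, the libraries compared alone, APOE3 and APOE4 mice with a title ending in e or f, and each library left out.

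Given in every mouse are Foxj1, each called gene and the 3 highest per length. From each other list (motile cilia genes outside the members, ciliogenesis regulators, intraflagellar transport and BBSome, and markers of choroid plexus, tanycytes, neuroblasts and cycling cells, meningeal fibroblasts and astrocytes) every called gene is named. Neighbours were named from the 4 of smallest p within 5 Mb of each called member, and not all 4 are given. Further genes were picked with their values known. The members and lists were chosen with earlier results of these data known, including that calls cluster on some chromosomes.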

Additional observations from a re-analysis of the deposited data

Results flagged for a closer look

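In 8 of 126 groups of 6 mice (each gene in each genotype) a single mouse stood apart from the other 5 by more than Dixon's limit, which chance alone passes in about 1 of 20 groups. APOE2 mouse 5 was high in Foxj1, at 14.3 CPM with the others between 10.1 and 11.2 CPM, and in the dynein light chain gene Dynlrb2, at 2.23 CPM with the others between 1.32 and 1.6. It was also the mouse with the highest summed level of choroid plexus genes, 2012 CPM. APOE2 mouse 2 was low in Tekt2, at 0.681 CPM with the others between 0.967 and 1.05, and high in Cfap45, at 3.81 CPM with the others between 3.04 and 3.32. APOE3 mouse 1 was high in Tekt4, at 1.3 CPM with the others between 0.605 and 0.817, and APOE3 mouse 6 in Dynlrb2, at 2.26 CPM with the others between 1.38 and 1.52. APOE4 mouse 5 was high in the radial spoke gene Rsph4a, at 7.56 CPM with the others between 6.15 and 6.52, and in Spag17, at 1.35 CPM with the others between 0.774 and 0.977. Without APOE2 mouse 2, the log2 fold change of Tekt2 between APOE2 and APOE4 was -0.41 (edgeR adjusted p = 0.121).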

How the results depend on the processing

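The number of the 42 genes called between APOE2 and APOE3 was 6 in each of the 18 fits without 1 library, and between APOE2 and APOE4 it was 5 or 6; in the other comparisons it was 0 throughout. The log2 fold changes of Mns1, Tekt1, Zmynd10, Dcdc2b and Ccdc153 kept their direction and side of the threshold under every alternative run in both APOE2 pairs. Tekt2 between APOE2 and APOE4 ranged from -0.55 to -0.39 without 1 library (adjusted p from 0.0269 to 0.159), with the lowest support without APOE4 mouse 1, and the cause was not tested. The relations of Foxj1 with Rsph1 and Tmem212 lost their call without the 2 mice farthest from its median, at r = 0.581 and 0.453; fewer mice were used there. Over all genes, DESeq2 called 272 between APOE4 and APOE3 in place of 146, and 59 between the sexes in place of 25, where no filter gave 53. In the interactions it called 7, 36 and 1 in place of 0, 2 and 0, and limma voom called 6 in the second; leaving out 1 library gave 0 to 11 there. Leaving out APOE4 mouse 5 raised the calls between APOE2 and APOE4 from 1233 to 1903. No paired analysis was possible because the labels give each mouse its own identifier and no number is shared between genotypes. Depth limits the lowest genes, such as Mia with 3 to 15 counts, and intervals are for single genes.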
